A study of Homo sapiens with 8 samples.

Results

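The aminoacyl-tRNA synthetases were examined as a set of 39 genes, taken by symbol from the 60332 rows of the deposited gene matrix, with the row of highest mean kept for each symbol. They comprised 20 genes of the cytosolic enzymes, 16 genes of the mitochondrial enzymes, whose symbols end in 2, and the 3 auxiliary proteins of the multi-synthetase complex, AIMP1, AIMP2 and EEF1E1. The matrix keeps older symbols, so that AARS, SARS and TARS stand for AARS1, SARS1 and TARS1 of current annotation. All 39 had a mean of at least 1 FPKM (fragments normalized to transcript length and to library size) over the 8 libraries and were among the 15175 genes tested. The libraries came from the Ewing sarcoma cell lines RD-ES and SK-N-MC, with 2 control and 2 eKD2 libraries in each line. The eKD2 cells carried a lentivirus with dCas9-KRAB, a Cas9 that does not cut and is fused to a repressor domain, with a guide RNA next to the GGAA repeat of an enhancer of LOXHD1. The control cells are labelled as infected with the empty dCas9-KRAB lentivirus, whereas the text of the study calls them parental. Both kinds of cell received virus at an MOI (multiplicity of infection) of 10, were selected in puromycin at 1 µg/ml for 3 days and were used within 5 passages, as populations and not as single clones.

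Aminoacyl-tRNA synthetases join each amino acid to its tRNA and so supply the ribosome with charged tRNAs. Separate nuclear genes encode most of the cytosolic and mitochondrial enzymes, but GARS and KARS each encode both forms, and EPRS charges glutamate and proline tRNAs in the cytosol. The enzymes fall into class I and class II by the fold of their catalytic domain, and a group of the cytosolic ones is held in a complex by AIMP1, AIMP2 and EEF1E1. When amino acids are scarce or the endoplasmic reticulum is stressed, the transcription factor ATF4 raises transcription of many cytosolic synthetase genes together with those of amino acid synthesis and transport.

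ATF4 binds with C/EBP partners at elements that share the core TGATGNAA, and this core was searched on both strands of RefSeq promoters (GRCh38.p14, 250 bases before to 50 bases after the start of the gene). A promoter was found for 33 of the 39 genes and none was used for DARS, LARS, VARS, YARS, AARS2 and VARS2. The core was present in 6 of 16 cytosolic promoters (37.5%), in 1 of 14 mitochondrial promoters (7.14%), in 0 of 3 promoters of the auxiliary proteins and in 3.62% of all 35116 promoters. The 6 cytosolic genes were all among the 10 with a promoter that are generally listed as ATF4 targets, and 0 of the 6 other cytosolic promoters held it. This split by the list is a description and was not tested. Windows of 30 bases are shown for every member that held the core, since these 7 sequences can be set beside the values of their genes, with the core or its reverse complement in capitals:
AARS: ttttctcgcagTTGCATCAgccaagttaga
CARS: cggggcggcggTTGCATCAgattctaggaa
IARS: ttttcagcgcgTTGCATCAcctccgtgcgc
MARS: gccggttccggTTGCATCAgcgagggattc
NARS: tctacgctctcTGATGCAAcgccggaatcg
TARS: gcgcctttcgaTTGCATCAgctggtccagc
YARS2: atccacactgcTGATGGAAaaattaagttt
Each line reads 5′ to 3′ on the strand of its gene. The 6 cytosolic windows hold the same 8 letters, reversed in 5 of them, and YARS2 differs at the free position. The windows lie at chr16:70289675-70289704 for AARS, chr11:3057407-3057436 for CARS, chr9:92293692-92293721 for IARS and chr18:57621804-57621833 for NARS, all on the minus strand. Those of MARS and TARS lie on the plus strand at chr12:57488053-57488082 and chr5:33440956-33440985, and that of YARS2 on the minus strand at chr12:32756076-32756105. In 5 of the cytosolic genes the first base of the match lay between 13 bases before and 15 bases after the start, and in AARS 187 bases before it. A match of letters is not a measured binding site, and its absence from a window says nothing of the factor.

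LOXHD1 was at 21.2 to 21.4 FPKM in the RD-ES controls and 1.02 to 1.04 in RD-ES eKD2, and at 159 to 169 FPKM in the SK-N-MC controls and at most 11.95 in SK-N-MC eKD2, so that each library matched its label. Read numbers are not given with the matrix. The steps between low values put relative depth, set to 1 in RD-ES control replicate 1, between 0.578 in RD-ES eKD2 replicate 1 and 2.31 in SK-N-MC control replicate 1. All 7 Ewing sarcoma markers examined were detected in every library. NR0B1 was low in RD-ES (2.38 to 3.84 FPKM), and the leukocyte gene PTPRC stood at 19.2 to 22.6 FPKM in SK-N-MC and at or below 0.0173 in RD-ES. Of the markers of other cell types, the macrophage gene CD68 was at 1.16 and 1.85 FPKM in the RD-ES controls and 2.49 and 4.17 in RD-ES eKD2, and at 0.642 and 1.27 in the SK-N-MC controls and 0.805 and 0.726 in SK-N-MC eKD2. Both RD-ES eKD2 libraries lay above their controls in CD68, by 0.77 ± 0.28 on the log2 scale (limma, adjusted p = 0.36). The epithelial gene EPCAM stood at 0.300 to 0.971 FPKM in the RD-ES libraries and at 2.96 to 4.54 in those of SK-N-MC, and the keratin KRT5 was at 0 in all 8. The part of these markers in the results for the synthetases was not tested. Differences are given on the scale of log2(FPKM + 1) with the standard error of limma, and adjusted p-values follow Benjamini and Hochberg over all genes tested. With 2 against 2 libraries an exact permutation test cannot reach a two-sided p below 0.333, and the p-values from limma measure only the spread between these libraries.

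Summed over their genes, the cytosolic enzymes exceeded the mitochondrial enzymes in every library. MARS, the methionyl-tRNA synthetase, was the highest of all 39 in every group, with a mean of 1035 FPKM in RD-ES control, 990 in RD-ES eKD2 and, for SK-N-MC, 740 in control and 820 in eKD2. MARS alone made up 17.9% to 29.9% of the summed FPKM of the 20 cytosolic genes in a library. LARS, for leucine, came next in RD-ES control at 295 ± 6.2 FPKM (SD, n = 2). PARS2, the mitochondrial prolyl-tRNA synthetase, was the lowest of all 39 in every group, with 4.29 and 4.53 FPKM in the RD-ES controls. IARS2, for isoleucine, was the highest mitochondrial enzyme in the RD-ES controls with 82.3 and 70.0 FPKM. 

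Among 16 pairs of a cytosolic and a mitochondrial enzyme for the same amino acid, the ratio of mean FPKM was above 1 in all 16 pairs and all 4 groups. The median ratio was 5.53 in RD-ES control, 7.30 in RD-ES eKD2 and, for SK-N-MC, 8.05 in control and 8.80 in eKD2. MARS over MARS2 was the widest pair, with a ratio of 155 in RD-ES control and 90.4 in SK-N-MC control. CARS over CARS2, for cysteine, was the narrowest in RD-ES control at 1.40, but CARS differed widely between replicates and its ratio was 0.836 in replicate 1. HARS over HARS2, for histidine, was the narrowest in SK-N-MC control at 1.89. The ratio of the sums over all cytosolic and all mitochondrial genes was 7.86 and 8.36 in the RD-ES controls, 8.05 and 8.63 in RD-ES eKD2, 10.40 and 10.52 in the SK-N-MC controls and 10.9 and 11.1 in SK-N-MC eKD2. The lines did not overlap in this ratio, whereas control and eKD2 libraries overlapped in RD-ES. In SK-N-MC both eKD2 libraries lay above both controls.

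**Figure D1:**
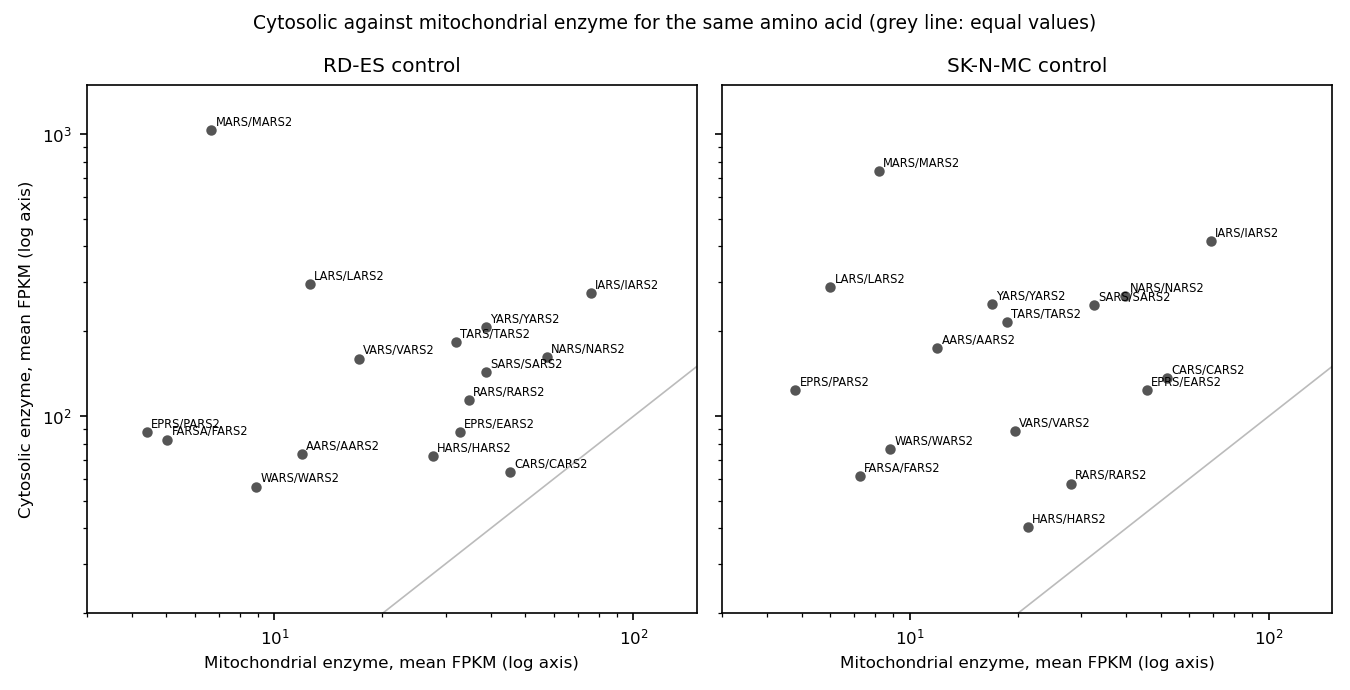
Mean FPKM of the cytosolic enzyme (vertical, log axis) against that of the mitochondrial enzyme for the same amino acid (horizontal, log axis) in the control libraries of RD-ES and SK-N-MC. Each point is 1 of 16 pairs and the grey line marks equal values. All pairs lie above the line, with MARS/MARS2 farthest from it.

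The comparison of eKD2 with control cells asked which synthetase genes changed when the LOXHD1 enhancer was repressed. In RD-ES, SARS alone of the 39 passed the adjusted threshold of 0.05, beside 0.343% of all genes tested. The same test at an unadjusted p under 0.05 gave 10 members higher and 0 lower, beside 8.49% of all genes higher and 3.79% lower. They were 7 cytosolic enzymes (AARS, GARS, NARS, SARS, TARS, WARS and YARS), 2 mitochondrial enzymes (FARS2 and PARS2) and AIMP2. After scaling each library to its median this became 5 higher (AARS, GARS, NARS, SARS and TARS) and 1 lower (EEF1E1), beside 824 of all genes higher and 1175 lower. After quantile normalization it was 8 higher and 0 lower, beside 919 and 792 of all genes. The 10 and 0 became 6 and 0 with each line fitted alone, beside 881 of all genes higher and 461 lower. The counts of members and of all genes also moved when a library was left out, which leaves 1 library in its group. In these bulk samples fewer cells of a kind and less RNA per cell cannot be told apart.

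SARS encodes the cytosolic seryl-tRNA synthetase and lies at chr1:109756540-109780804 of GRCh37 on the plus strand. It was measured at 147 and 140 FPKM in the RD-ES controls, 208 and 213 in RD-ES eKD2, 244 and 252 in the SK-N-MC controls and 298 and 309 in SK-N-MC eKD2. Both eKD2 libraries lay above both controls in each line, and all SK-N-MC libraries lay above all RD-ES libraries. The mean was 46.7% higher in RD-ES eKD2, and SARS rose by 0.55 ± 0.054 on the log2 scale (limma, adjusted p = 0.022). In SK-N-MC the difference was 0.29 ± 0.054, which missed the threshold (limma, adjusted p = 0.15). Across the alternative settings the RD-ES adjusted p of SARS ran from 0.014 to 0.29, and it was above 0.05 whenever any of the 8 libraries was left out, without the mean-variance trend and with each line fitted alone.

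AARS, GARS, TARS and NARS, also class II enzymes, were higher in both RD-ES eKD2 libraries but missed the adjusted threshold. AARS, the alanyl-tRNA synthetase, was at 69.3 and 77.6 FPKM in the RD-ES controls and 105 and 117 in RD-ES eKD2, against 177 and 172 in the SK-N-MC controls and 167 and 171 in SK-N-MC eKD2. Both RD-ES eKD2 libraries were above both controls and below every SK-N-MC library. The RD-ES difference was 0.59 ± 0.082 (limma, adjusted p = 0.082) and that in SK-N-MC -0.05 ± 0.082 (adjusted p = 0.88). AARS shares 43 exon bases with DDX19B on the opposite strand, and the library kit does not record strand.

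GARS, the glycyl-tRNA synthetase of cytosol and mitochondria, was at 205 and 203 FPKM in the RD-ES controls and 340 and 284 in RD-ES eKD2. It was at 513 and 512 FPKM in the SK-N-MC controls and 451 and 434 in SK-N-MC eKD2, so that eKD2 lay above control in RD-ES and below it in SK-N-MC with no overlap. The differences were 0.60 ± 0.087 (limma, adjusted p = 0.089) and -0.21 ± 0.087 (adjusted p = 0.39). Without RD-ES eKD2 replicate 2 the RD-ES difference was 0.73 and passed the threshold (limma, adjusted p = 0.018), and without replicate 1 it was 0.47 and did not (adjusted p = 0.074). Over all alternatives the adjusted p reached 0.55, with each line fitted alone. GARS shares 312 exon bases with GARS1-DT on the opposite strand, which averaged 24.4 FPKM.

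TARS, the threonyl-tRNA synthetase, was at 191 and 175 FPKM in the RD-ES controls and 242 and 246 in RD-ES eKD2. In SK-N-MC it was at 212 and 220 FPKM in the controls and 186 and 179 in eKD2. The groups did not overlap in either line and lay in opposite order. The differences were 0.41 ± 0.062 for RD-ES (limma, adjusted p = 0.10) and -0.24 ± 0.062 for SK-N-MC (adjusted p = 0.21). NARS, for asparagine, had the same order, with 170 and 153 FPKM in the RD-ES controls, 197 and 201 in RD-ES eKD2, 267 and 265 in the SK-N-MC controls and 250.4 and 250.5 in SK-N-MC eKD2. Its differences were 0.30 ± 0.063 (limma, adjusted p = 0.19) and -0.09 ± 0.063 (adjusted p = 0.63).

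The class I enzymes WARS and YARS were higher in both eKD2 libraries of both lines. WARS, the tryptophanyl-tRNA synthetase, which is also induced by interferon gamma, was at 57.1 and 55.6 FPKM in the RD-ES controls and 66.9 and 117 in RD-ES eKD2. The RD-ES eKD2 replicates differed 1.75-fold, and the difference of 0.64 ± 0.24 (limma, adjusted p = 0.37) was 0.24 without replicate 2 and 1.04 without replicate 1, when it passed the threshold (adjusted p = 0.014). In SK-N-MC WARS was at 74.0 and 79.4 FPKM in the controls and 109 and 104 in eKD2, a difference of 0.47 ± 0.24 (limma, adjusted p = 0.48). YARS, for tyrosine, was at 205 and 210 FPKM against 239 and 233 in RD-ES and at 244 and 257 against 279 and 286 in SK-N-MC. These small differences of 0.19 ± 0.053 and 0.17 ± 0.053 had adjusted p-values of 0.27 and 0.28 in limma. YARS shares 396 exon bases with S100PBP on the opposite strand.

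Of the mitochondrial enzymes, FARS2, for phenylalanine, was at 4.86 and 5.21 FPKM in the RD-ES controls and 6.23 and 6.50 in RD-ES eKD2. PARS2 was at 4.29 and 4.53 FPKM in the RD-ES controls and 5.45 and 6.37 in RD-ES eKD2. Neither overlapped between the groups, and the differences of 0.29 ± 0.10 and 0.35 ± 0.13 had adjusted p-values of 0.36 and 0.37 in limma. In SK-N-MC both overlapped between the groups. EARS2, for glutamate, was at 31.9 and 33.7 FPKM in the RD-ES controls, 35.1 and 44.5 in RD-ES eKD2, 48.3 and 43.1 in the SK-N-MC controls and 30.2 and 40.5 in SK-N-MC eKD2. It lay in opposite order in the lines, with differences of 0.26 ± 0.17 and -0.37 ± 0.17 (limma, adjusted p = 0.58 and 0.43), and it shares 203 exon bases with GGA2 on its own strand.

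In SK-N-MC, 0 of the 39 passed the adjusted threshold in limma, beside 0.323% of all genes. At an unadjusted p under 0.05, AIMP2, SARS and YARS were higher and HARS and TARS lower, that is 3 and 2 members, beside 5.71% and 7.29% of all genes. AIMP2, which holds the complex together, was at 41.2 and 44.9 FPKM in the RD-ES controls and 49.6 and 49.5 in RD-ES eKD2, and at 31.7 and 32.4 in the SK-N-MC controls and 43.8 and 47.6 in SK-N-MC eKD2. Its eKD2 values lay above the controls in both lines without overlap, by 0.20 ± 0.077 for RD-ES (limma, adjusted p = 0.38) and 0.50 ± 0.077 for SK-N-MC (adjusted p = 0.099). AIMP2 shares 532 exon bases with EIF2AK1 on the opposite strand, a gene at a mean of 94.1 FPKM. HARS was at 75.3 and 69.4 against 68.2 and 65.4 FPKM in RD-ES and at 38.3 and 42.5 against 32.8 and 33.5 in SK-N-MC. It was the single member lower without overlap in eKD2 of both lines, by -0.11 ± 0.080 and -0.28 ± 0.080 (limma, adjusted p = 0.60 and 0.26). HARS shares 1090 exon bases with WDR55 on the opposite strand, a gene at a mean of 10.1 FPKM.

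**Figure D2:**
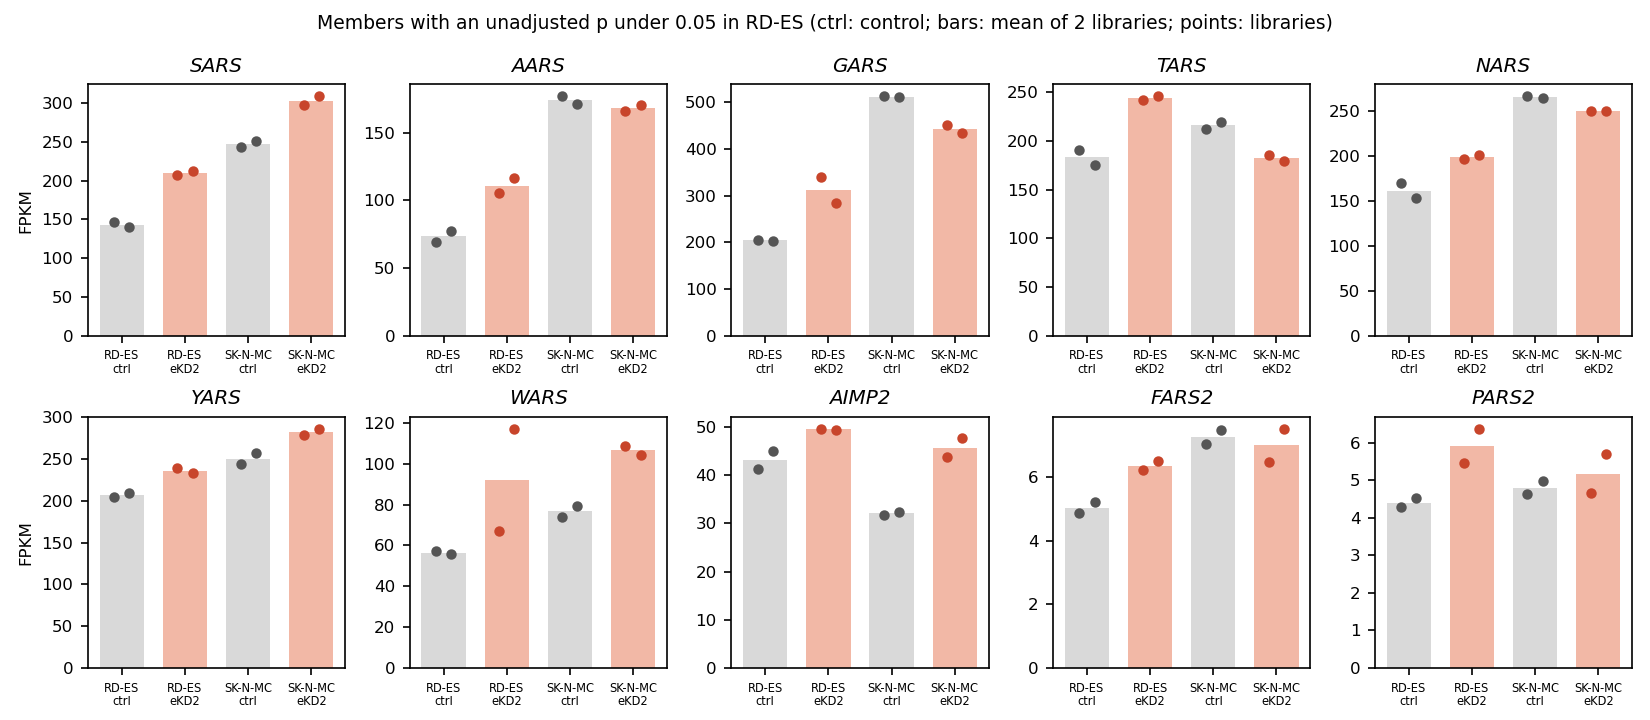
FPKM (linear axis from 0) of the 10 members with an unadjusted p under 0.05 in RD-ES, in the 4 groups. Bars are means of 2 libraries and points are libraries. SARS, WARS, YARS and AIMP2 are higher in eKD2 in both lines, and AARS, GARS, TARS and NARS are lower in SK-N-MC eKD2 than in SK-N-MC control.

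Counting libraries that did not overlap, 15 of 39 members were higher, 3 lower and 21 overlapping in RD-ES, beside 24.2% of all genes higher and 15.1% lower. In SK-N-MC 7 were higher, 10 lower and 22 overlapping, beside 22.2% and 25.1%. SARS, WARS, YARS and AIMP2 were higher in both lines and HARS lower in both. The share of all genes with the same direction in both lines was not counted, so these members cannot be set beside it. AARS, GARS, NARS, TARS and EARS2 were higher in RD-ES and lower in SK-N-MC, an order found in 6.69% of all genes. EEF1E1, which links the complex to elongation factor 1, had the reverse order, found in 3.55% of all genes, with 92.4 and 101 against 83.6 and 88.2 FPKM in RD-ES and 96.2 and 93.1 against 109 and 100.4 in SK-N-MC.

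**Figure D3:**
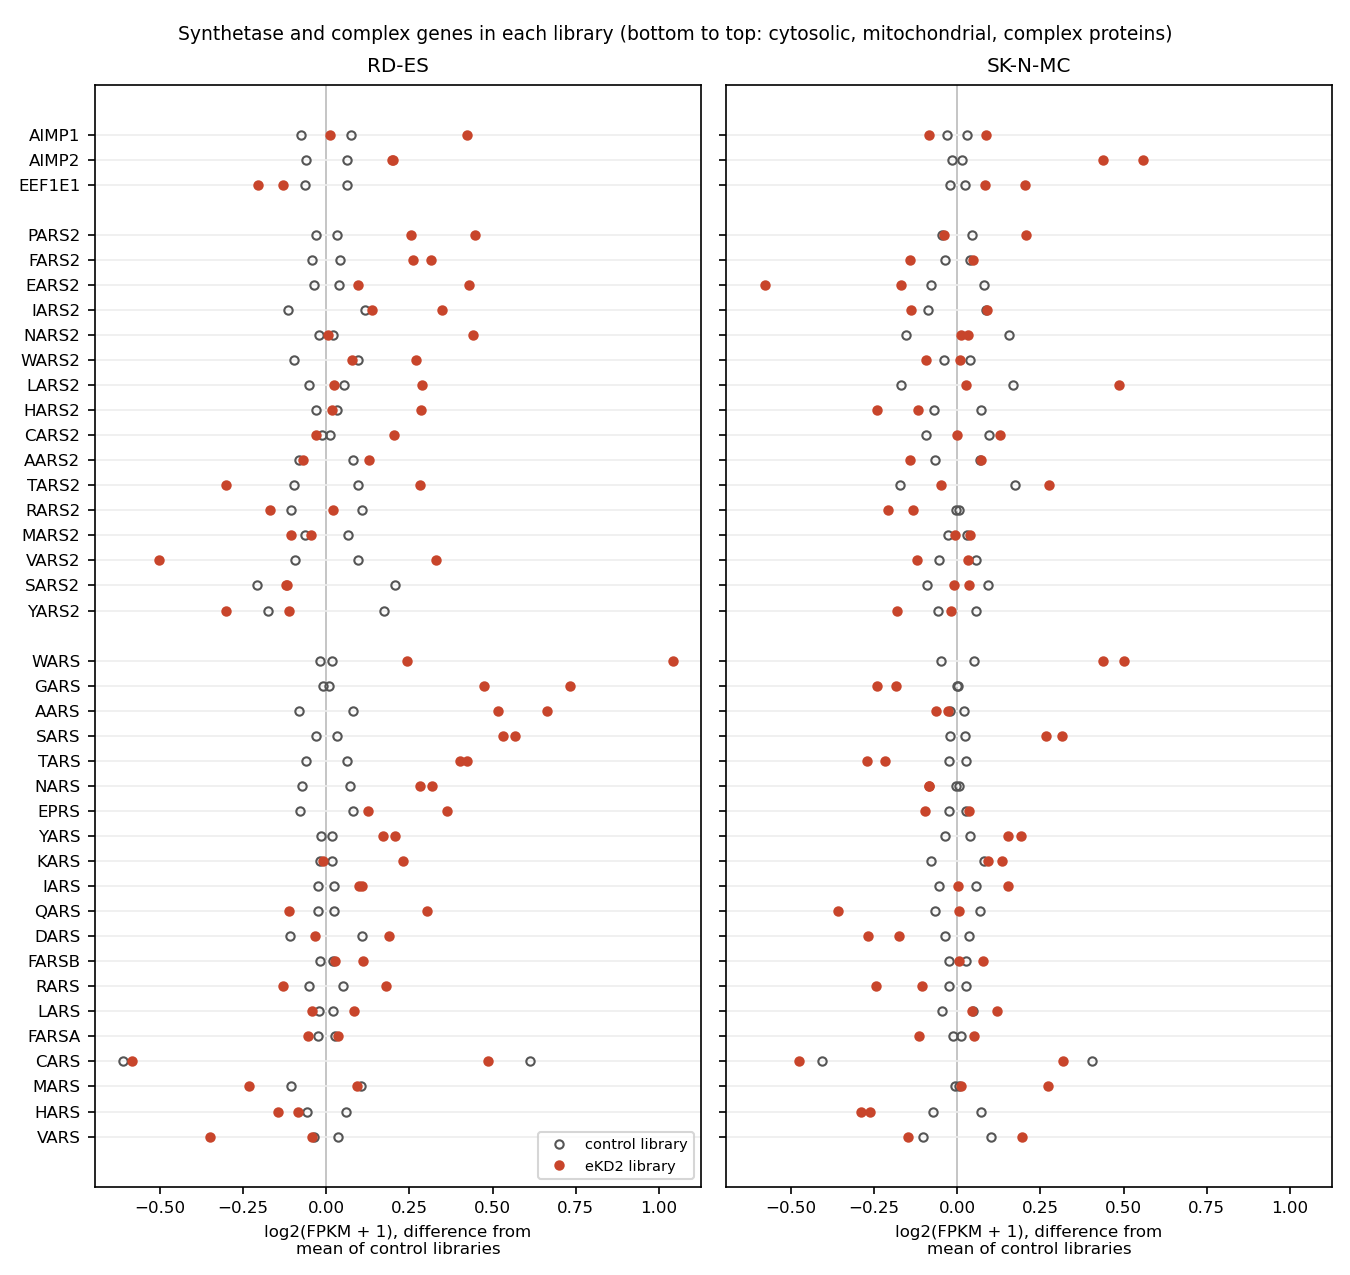
Each member in each library as the difference in log2(FPKM + 1) from the mean of the control libraries of its line (horizontal), with open points for control and filled points for eKD2 libraries. In RD-ES the filled points of GARS, AARS, SARS and TARS lie to the right of the open ones, and in SK-N-MC those of GARS and TARS lie to the left. CARS shows the widest spread between replicates.

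The enzymes were then taken by compartment and function. The median difference of the 20 cytosolic genes was 0.099 for RD-ES and -0.032 for SK-N-MC, and that of the 16 mitochondrial genes was 0.12 and -0.030, while the median of all genes was 0.031 and -0.0049. After median scaling the RD-ES medians were 0.027 for cytosolic, 0.049 for mitochondrial and -0.022 for all genes. Without RD-ES eKD2 replicate 2 they were 0.18, 0.049 and 0.029. In RD-ES 7 of 20 cytosolic and 2 of 16 mitochondrial genes stood at an unadjusted p under 0.05, all higher. Of all genes, 8.49% were higher at that threshold, and the difference between the compartments was not tested. The 12 cytosolic genes generally listed as ATF4 targets (AARS, CARS, EPRS, GARS, IARS, LARS, MARS, NARS, SARS, TARS, WARS and YARS) had a median of 0.27 in RD-ES. These 12 included all 7 cytosolic genes with an unadjusted p under 0.05. Of the 12, 9 were higher without overlap, beside 24.2% of all genes higher and 15.1% lower. The list was chosen with earlier results of these data known, so its split from the other cytosolic genes is a description and not a test. The 8 other cytosolic genes had a median of 0.047 in RD-ES, 0 with an unadjusted p under 0.05 and 1 higher and 2 lower without overlap. In SK-N-MC the medians of these lists were 0.023 and -0.10. AARS, NARS and TARS hold the core printed above, and SARS, GARS and WARS, whose promoters were also searched, do not. CARS, IARS and MARS hold it and had RD-ES differences of -0.05 ± 0.57, 0.10 ± 0.070 and -0.07 ± 0.14.

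By class, the 10 cytosolic class II genes had a median of 0.21 for RD-ES and -0.066 for SK-N-MC, and the 10 class I genes 0.061 and 0.050. EPRS, which charges glutamate and proline tRNAs, was counted in class I only. The 11 genes of the multi-synthetase complex had medians of 0.096 and 0.077, and 1 of them, AIMP2, had an unadjusted p under 0.05 in each line. In RD-ES 7 genes of the complex overlapped between the groups, namely MARS, KARS, LARS, QARS, RARS, DARS and AIMP1. Without overlap 3 were higher and 1 lower, beside 24.2% and 15.1% of all genes. MARS shares 355 exon bases with DDIT3 on the opposite strand, and DDIT3 changed in RD-ES as given below.

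Whether the eKD2 difference itself differed between the lines was tested as the SK-N-MC difference minus the RD-ES difference. In limma 0 of 39 members passed the adjusted threshold, beside 0.244% of all genes. At an unadjusted p under 0.05, 6 were lower (AARS, EARS2, GARS, NARS, SARS and TARS) and 2 higher (AIMP2 and EEF1E1), beside 9.16% and 4.38% of all genes. TARS had the smallest adjusted p (limma, 0.078), with a difference between lines of -0.66 ± 0.088, followed by GARS with -0.81 ± 0.12 (adjusted p = 0.10) and AARS with -0.64 ± 0.12 (adjusted p = 0.15). GARS passed the threshold without RD-ES eKD2 replicate 2, at -0.94 (limma, adjusted p = 0.020), and missed it without replicate 1, at -0.69 (adjusted p = 0.053). Over all alternatives its adjusted p reached 0.33.

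The lines themselves were compared through their control libraries, which also serve in the comparisons with eKD2 above. The test called 24 of the 39 members (61.5%), beside 57.8% of all genes, with 12 higher and 12 lower in SK-N-MC, beside 31.4% and 26.4% of all genes. Scaling each library to its median moved the median line difference of all genes from 0.065 to -0.042, and the members called then split into 8 higher and 15 lower, beside 3983 higher and 4838 lower of all genes. Leaving out SK-N-MC control replicate 2 reduced the members called to 14, and all genes called to 3686 higher and 3240 lower. Cytosolic enzymes were called in 16 of 20 cases, 10 higher and 6 lower, and mitochondrial enzymes in 7 of 16 cases, 2 higher and 5 lower. The median line difference was 0.33 for the cytosolic and -0.073 for the mitochondrial genes, and 0.19 and -0.21 after median scaling.

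GARS had the largest difference among the members called, 1.32 ± 0.087 (limma, adjusted p = 8.6e-05), a mean of 512 ± 0.48 FPKM in the SK-N-MC controls against 204 ± 1.8 in the RD-ES controls (SD, n = 2). AARS followed with 1.24 ± 0.082 (limma, adjusted p = 8.6e-05), SARS with 0.79 ± 0.054 and NARS with 0.72 ± 0.063. IARS, for isoleucine, was at 278 and 268 FPKM in the RD-ES controls and 435 and 403 in the SK-N-MC controls, a difference of 0.62 ± 0.070. FARSB, the beta subunit of the cytosolic phenylalanyl-tRNA synthetase, was higher by 0.57 ± 0.067, whereas FARSA, the alpha subunit of the same enzyme, was lower, at -0.42 ± 0.078 (limma, adjusted p = 7.4e-04 and 0.0047). FARSB was at 47.5 and 48.8 FPKM in the RD-ES controls and 73.3 and 70.6 in the SK-N-MC controls, and FARSA at 81.1 and 84.1 against 62.0 and 61.0. In FPKM, FARSA stood above FARSB in the RD-ES controls and below it in the SK-N-MC controls. EPRS (0.49 ± 0.10), DARS for aspartate (0.39 ± 0.11), YARS (0.27 ± 0.053) and TARS (0.24 ± 0.062) were also called higher, but DARS, YARS and TARS lost the call after median scaling. MARS2 lost it after median scaling and after quantile normalization, and MARS and FARS2 after quantile normalization.

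The cytosolic enzymes lower in SK-N-MC were mainly outside the ATF4 list. RARS, for arginine, was at 118 and 110 FPKM in the RD-ES controls and 58.8 and 56.7 in the SK-N-MC controls, a difference of -0.97 ± 0.12 (limma, adjusted p = 8.0e-04). KARS, for lysine, differed by -0.87 ± 0.098, VARS, for valine, by -0.85 ± 0.15 and HARS by -0.83 ± 0.080. MARS, the one listed ATF4 target among those called lower, differed by -0.48 ± 0.14 (limma, adjusted p = 0.026). Of the 12 listed ATF4 targets 8 were called higher and 1 lower, with a median of 0.55. The 8 other cytosolic genes had 2 called higher and 5 lower, with a median of -0.62. Of all genes, 31.4% were called higher and 26.4% lower, and the list was chosen with earlier results known. All 10 class II genes were called, 7 higher and 3 lower, against 6 of 10 class I genes, 3 in each direction. The share of all genes called was 57.8%, and EPRS was among the class I genes called higher.

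Among mitochondrial enzymes YARS2, whose promoter held the core, had the largest line difference, -1.14 ± 0.14 (limma, adjusted p = 9.5e-04), with 43.6 and 34.0 FPKM in the RD-ES controls and 16.2 and 17.7 in the SK-N-MC controls. LARS2 differed by -0.96 ± 0.20, TARS2 by -0.76 ± 0.23, NARS2 by -0.52 ± 0.16 and HARS2 by -0.36 ± 0.11. Their adjusted p-values in limma were 0.0071, 0.031, 0.034 and 0.035. Each of these genes missed the threshold under some of the alternative settings. FARS2 was higher in SK-N-MC by 0.45 ± 0.10 (limma, adjusted p = 0.011) and MARS2 by 0.26 ± 0.091 (adjusted p = 0.049). HARS and HARS2 are transcribed in opposite directions from adjoining starts and share 108 exon bases, and both were lower in SK-N-MC. HARS2 also shares 152 exon bases with ZMAT2 on its own strand, a gene at a mean of 87.7 FPKM. AIMP2 was lower by -0.41 ± 0.077 (limma, adjusted p = 0.0047).

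The same comparison through the eKD2 libraries called 22 members, beside 56.3% of all genes, 9 higher and 13 lower in SK-N-MC, beside 28.2% and 28.1%. Of these, 17 were called in the controls with the same direction, 8 higher (AARS, FARSB, GARS, IARS, MARS2, NARS, SARS and YARS) and 9 lower (FARSA, HARS, HARS2, KARS, LARS2, NARS2, RARS, VARS and YARS2). EEF1E1 was called higher and IARS2, QARS and RARS2 lower in the eKD2 libraries and not in the controls. TARS was called in both with opposite signs, 0.24 ± 0.062 in controls (limma, adjusted p = 0.018) and -0.42 ± 0.062 in eKD2 (adjusted p = 0.0020), though its control difference was 0.090 after median scaling (adjusted p = 0.34). The line difference of GARS was 0.51 ± 0.087 and that of AARS 0.60 ± 0.082 in eKD2 libraries.

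**Figure D4:**
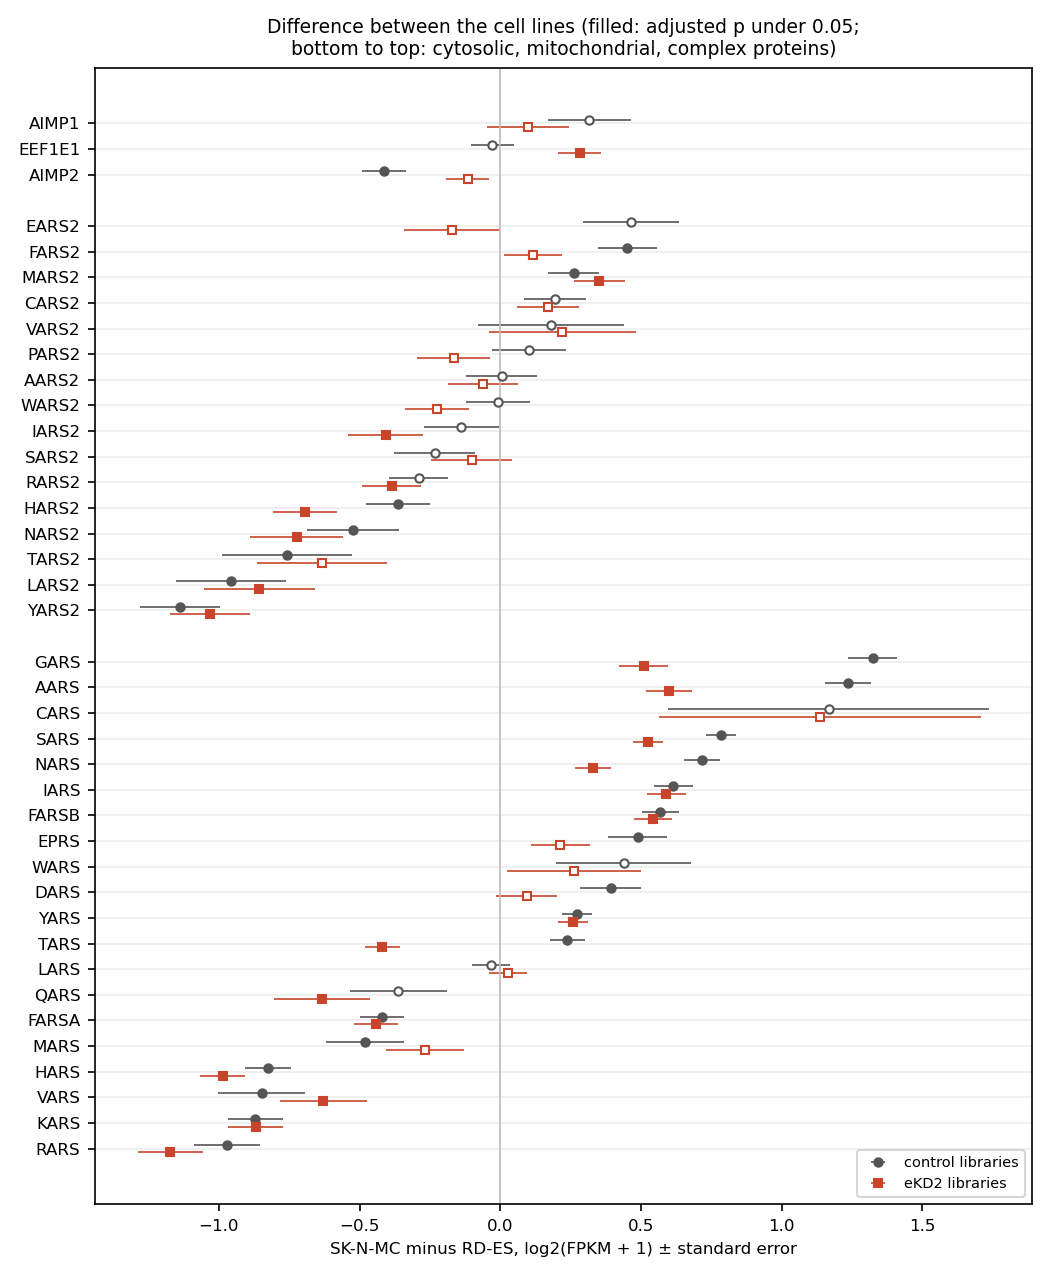
Difference between the lines (SK-N-MC minus RD-ES) in log2(FPKM + 1), with standard errors from limma, for control libraries (circles) and eKD2 libraries (squares), filled where the adjusted p was under 0.05. GARS and AARS lie farthest to the right among members called in controls, RARS and YARS2 farthest to the left, and TARS lies on opposite sides of 0 in the controls and in eKD2.

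Of 24 further genes of tRNA charging, export, editing and delivery, 1 passed the adjusted threshold for RD-ES and 0 for SK-N-MC. The shares of all genes were 0.343% and 0.323%. The gene that passed was EEF1A2, the form of elongation factor 1A known from muscle and neurons, which delivers charged tRNA to the ribosome. It was at 2.28 and 3.24 FPKM in the RD-ES controls and 9.411 and 7.999 in RD-ES eKD2, and at 3.32 and 3.53 in the SK-N-MC controls and 7.59 and 8.16 in SK-N-MC eKD2. In RD-ES it rose by 1.38 ± 0.15 (limma, adjusted p = 0.035). Both SK-N-MC eKD2 libraries also lay above their controls, by 1.00 ± 0.15, which missed the threshold (adjusted p = 0.097). The median of the 24 genes was 0.059 for RD-ES and 0.025 for SK-N-MC.

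Of 12 genes of the amino acid response, the pathway of ATF4, 7 rose in RD-ES at an adjusted p under 0.05 in limma. Of all genes, 0.343% passed that threshold in either direction. At an unadjusted p under 0.05, 10 of the 12 were higher, beside 8.49% of all genes, and the list median was 1.08. CHAC1, which degrades glutathione, had the largest difference, from 3.02 and 3.63 to 44.3 and 56.3 FPKM, or 3.56 ± 0.15 (limma, adjusted p = 6.6e-04). The stress factor ATF3 rose by 2.33 ± 0.11, SESN2, an inhibitor of mTORC1, by 2.18 ± 0.090 and the pseudokinase TRIB3 by 1.53 ± 0.10. The transcription factor DDIT3 rose by 1.31 ± 0.079, asparagine synthetase (ASNS) by 1.25 ± 0.078 and the phosphatase subunit PPP1R15A by 0.91 ± 0.098. ATF4 itself differed by 0.24 ± 0.061 (limma, adjusted p = 0.24). In SK-N-MC 0 of the 12 passed the adjusted threshold in limma, beside 0.323% of all genes. Unadjusted p-values fell under 0.05 for 3 that rose and 4 that fell, against 5.71% and 7.29% of all genes. The list median was -0.025. In the comparison of control libraries 11 of the 12 were called higher in SK-N-MC at an adjusted p under 0.05, beside 31.4% of all genes. The eKD2 difference itself differed between the lines at an adjusted p under 0.05 for ATF3, CHAC1, DDIT3 and SESN2, each lower in SK-N-MC. Of all genes, 0.244% passed that threshold. These values stand beside the synthetase values, and their relation was not tested.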

How the data were processed

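Poly-A selected RNA of 8 libraries was sequenced from single ends with a kit that does not record strand. According to the methods of the study, the authors aligned reads to GRCh37 with STAR and computed FPKM with cufflinks and cuffnorm, and the deposited matrix holds FPKM for each gene and library, not counts. A count test was therefore not used. Values were compared as log2(FPKM + 1) with limma 3.58.1 in R 4.3.3 (4 groups in 1 fit with 4 residual degrees of freedom, eBayes with trend, two-sided), after genes averaging under 1 FPKM were left out (15175 tested). A fold change on this scale understates the change of low genes. Depth in reads is unknown. The members and lists were chosen with earlier results of these data known. Members are named where an adjusted p was under 0.05 in a comparison or an unadjusted p under 0.05 in an eKD2 comparison, along with the highest and lowest. EARS2, EEF1E1, CARS, QARS, IARS2, RARS2, LARS and AIMP1 were named after their values were seen. Exon overlaps come from GENCODE on GRCh37. Of the markers of other cells, PECAM1 was not analysed here. Alternatives were a pseudocount of 0.1, no filter, median scaling, quantile normalization, no trend, a replicate block, each line fitted alone and leaving out each library. The line comparison through eKD2 libraries was added after seeing the data.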

Additional observations from a re-analysis of the deposited data

Results flagged for a closer look

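In 6 members every eKD2 library lay on 1 side of the controls in RD-ES and on the other side in SK-N-MC. Of all genes, 6.69% were higher in RD-ES and lower in SK-N-MC, and 3.55% had the reverse order. The 6 were picked by this order, and the difference between the lines was then tested in limma on the same values. The difference (SK-N-MC minus RD-ES) was -0.64 for AARS (adjusted p = 0.15), -0.81 for GARS (adjusted p = 0.10), -0.39 for NARS (adjusted p = 0.21), -0.66 for TARS (adjusted p = 0.078), -0.64 for EARS2 (adjusted p = 0.34) and 0.31 for EEF1E1 (adjusted p = 0.31). None of these passed the adjusted threshold of 0.05 with all libraries.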

How the results depend on the processing

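With 2 libraries a group and no read counts, small differences and differences in low genes such as PARS2 could not be resolved, and the spread of CARS between replicates leaves its differences unresolved. The count of 1 member changed in RD-ES became 0 without the trend and 0 with each line fitted alone. Leaving out a library gave 0 to 1, and SARS was in no case the member called: WARS was called without RD-ES eKD2 replicate 1 and GARS without RD-ES eKD2 replicate 2. In SK-N-MC the count stayed at 0 under all alternatives run. The count of 24 between the lines ran from 14 to 26 with a library left out, and that of members whose eKD2 change differed between lines from 0 to 1. Median scaling moved the RD-ES medians to 0.027 (cytosolic) and 0.049 (mitochondrial), the line medians to 0.19 and -0.21, and the medians of the difference between lines to -0.086 and -6.5e-04. Quantile normalization moved the line medians to 0.41 and -0.16 and the mitochondrial median of the difference between lines to -0.017. With a library left out, the cytosolic medians ran from 0.099 to 0.18 in RD-ES, -0.076 to 0.0051 in SK-N-MC, 0.29 to 0.38 between lines and -0.21 to -0.093 for the difference between lines. The mitochondrial medians ran from 0.049 to 0.13, -0.080 to 0.0035, -0.14 to -0.011 and -0.16 to -0.074. Of the single members, the difference between lines of YARS turned to 0.068 after median scaling and ran from -0.053 to 0.022 with a library left out, and that of WARS from -0.57 to 0.23. The cause was not tested. Samples with the same replicate number correlated in their deviations with r = 0.056 for RD-ES and 0.027 for SK-N-MC, so the numbers were not taken as pairs. A fit with the replicate number as a block gave 1 member in RD-ES, 0 in SK-N-MC, 24 between lines and 0 for the difference. Of all genes it called 26 higher and 10 lower in RD-ES and 17 and 16 in SK-N-MC. Between lines it called 4910 higher and 4157 lower, and for the difference 11 and 11.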

Other observations

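CARS, for cysteine, varied more between replicates than any other member, with 37.6 and 89.0 FPKM in the RD-ES controls, 38.3 and 81.6 in RD-ES eKD2, 174 and 98.9 in the SK-N-MC controls and 94.1 and 164 in SK-N-MC eKD2. The largest ratio between its replicates was 2.37, against 1.85 for VARS2, the next member, and 1.04 for SARS, the lowest. TARSL2, a threonyl-tRNA synthetase outside the 39 named here after its values were seen, was at 20.3 and 18.8 FPKM in the RD-ES controls and 5.04 and 4.96 in the SK-N-MC controls (log2 difference -1.78 ± 0.11, limma, adjusted p = 7.6e-05).

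Other motifs were searched in the same promoters on both strands. The E-box CACGTG was present in 1 of 16 cytosolic promoters (IARS), in 3 of 14 mitochondrial promoters (CARS2, EARS2 and MARS2) and in 7.26% of all promoters. A pair of GGAA units (GGAAGGAA) was present in the promoters of NARS and AIMP1 and in 3.67% of all promoters.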
